A study of Mus musculus with 6 samples.

Results

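The phagocyte NADPH oxidase is the enzyme complex that makes superoxide in macrophages and neutrophils. Its 7 genes described here are Cybb, Cyba, Cybc1, Ncf1, Ncf4, Rac1 and Rac2, picked by gene symbol. All 7 were among the 36706 genes listed in the deposited tables, and all 7 passed the filter on low counts, which left 12968 genes. RNA was sequenced from macrophages grown from the bone marrow of wild-type (WT) mice in the growth factor M-CSF. The 2 groups were macrophages given interferon-gamma (IFN-γ) for 3 h, with 3 libraries, and macrophages left untreated, with 3 libraries labelled with the same time. The study asked by what mechanism the cytokine turns on ACOD1, which produces itaconate. The labels do not tell whether replicates were separate animals or cultures, and p-values therefore cover only variation among these libraries, which may be technical. The strain, sex and age of the mice and the IFN-γ dose were not given in the labels.

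In resting cells the oxidase lies apart in the membrane and the cytosol. CYBB, also called gp91phox or NOX2, carries the haem groups and the NADPH site that pass electrons to oxygen, and CYBA, also called p22phox, is its membrane partner. On stimulation the cytosolic organiser NCF1 (p47phox) and the phosphoinositide-binding NCF4 (p40phox) move to the membrane, and a Rac GTPase in its GTP-bound state joins them. CYBC1, also called EROS, is a protein of the endoplasmic reticulum that mice need to keep gp91phox abundant. In humans, inherited loss of several of these proteins causes chronic granulomatous disease, in which phagocytes take up microbes but make little superoxide. IFN-γ has long been known as a cytokine that primes the oxidative burst of macrophages.

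The sequences just before the start sites of Cybb, Ncf1 and Cyba are shown because the first pair rose with IFN-γ and the third did not pass the test. Of the 7 genes, 4 had an entry in the RefSeq promoter table of build GRCm38.p6: Cybb, Ncf1, Cyba and Cybc1. Cybc1 also rose but is not printed. Ncf4, Rac1 and Rac2, which did not pass the test, had no entry, so Cyba is the only uncalled gene with a window. Whether motifs bear on the changes was not tested. Each run holds the 250 bases upstream of the annotated start site on the gene's strand, and all 3 printed genes lie on the minus strand. Capitals mark every match, on either strand, to an interferon-stimulated response element core (ISRE core, GAAA, any 2 bases, then GAAA), a gamma-activated site core (GAS core, TTC, any 3 bases, then GAA), an ETS-IRF composite (GGAA, any 2 bases, then GAAA) or a PU.1 core (GAGGAA). The windows lie at chrX:9469325-9469574 for Cybb, chr5:134229626-134229875 for Ncf1 and chr8:122432941-122433190 for Cyba.
Cybb: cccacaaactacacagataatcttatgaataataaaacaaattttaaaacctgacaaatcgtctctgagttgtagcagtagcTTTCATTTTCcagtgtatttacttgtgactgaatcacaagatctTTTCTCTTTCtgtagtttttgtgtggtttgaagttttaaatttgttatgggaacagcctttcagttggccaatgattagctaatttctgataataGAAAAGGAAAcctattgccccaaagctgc
Ncf1: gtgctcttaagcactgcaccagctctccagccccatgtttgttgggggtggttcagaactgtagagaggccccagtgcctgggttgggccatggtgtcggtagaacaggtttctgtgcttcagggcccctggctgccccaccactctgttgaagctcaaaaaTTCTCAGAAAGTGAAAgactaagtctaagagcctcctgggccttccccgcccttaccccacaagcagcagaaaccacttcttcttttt
Cyba: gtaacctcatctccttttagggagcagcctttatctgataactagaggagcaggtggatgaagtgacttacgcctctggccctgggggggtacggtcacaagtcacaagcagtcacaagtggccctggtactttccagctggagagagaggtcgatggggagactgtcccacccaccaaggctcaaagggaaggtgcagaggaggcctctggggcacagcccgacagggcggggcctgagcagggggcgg

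In Cybb the ISRE core occurred at 3 places, from -168 to -159, from -124 to -115 and from -29 to -20 relative to the start site. The most distal pair lay on the opposite strand and the most proximal on the gene's own strand. Of 32851 promoter windows in the table, each with 250 bases before and 50 after the start site, 3.44% held the ISRE core at least once, and 5 windows held it 3 times or more. Ncf1 held 1 ISRE core from -82 to -73, which overlapped 1 GAS core from -88 to -80; the GAS core occurred in 8.3% of windows. Cybb also had, on the opposite strand and past the start site, an ETS-IRF composite from 4 to 13 that overlapped a PU.1 core from 10 to 15. Those motifs occurred in 2.72% and 28.3% of windows. No match to any of the 4 motifs lay in the Cyba window. Cybc1 has 2 windows in the table, and the only match was a PU.1 core in one of them, from -184 to -179. A match describes letters only and says nothing of whether a factor binds there.

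**Figure D1:**
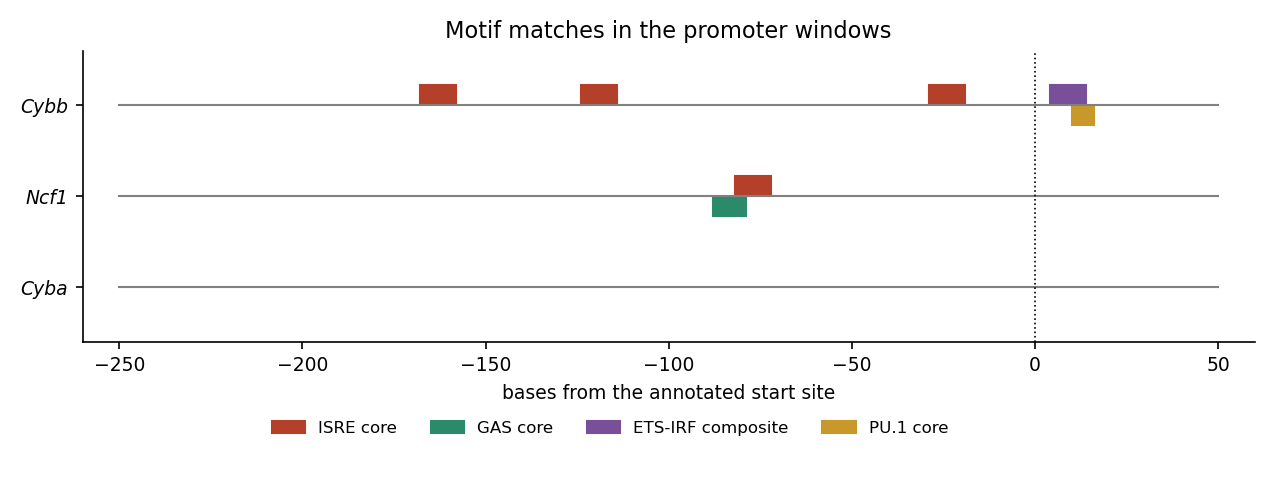
Motif matches by distance from the annotated start site (x axis, bases; the window runs from 250 bases before to 50 after it) in Cybb, Ncf1 and Cyba, 1 line per gene, with boxes for each motif. Cybb held 3 ISRE cores, Ncf1 held 1 beside a GAS core, and Cyba held no match. Cybc1, which also rose, is not drawn and held no ISRE or GAS core.

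The libraries held 34233607, 32628170 and 33106160 counts in IFN-γ replicates 1, 2 and 3, and 28133342, 28709235 and 31173432 counts in untreated replicates 1, 2 and 3. Values per gene are given as CPM, counts brought to a common library size with edgeR's TMM factors. A floor of 3 counts in 1 library came to between 0.089 and 0.101 CPM, covers counting error only, and lay far below every oxidase gene. The macrophage label was checked against 7 markers, among them Adgre1, Cd68 and Lyz2. The 7 summed to 20270 to 21550 CPM with IFN-γ and 19090 to 20580 CPM in untreated libraries. Most of that sum was Lyz2, which averaged 15250 CPM with IFN-γ and 15490 CPM untreated and was not called. Of the 7, 3 were called higher with IFN-γ and 0 lower, against 19.6% and 16.8% of all genes tested. Those higher were Adgre1 (1271 CPM with IFN-γ, 979 CPM untreated), Csf1r (1224 and 952 CPM) and Fcgr1 (931 and 393 CPM). Neutrophils also carry the oxidase. The 13 neutrophil markers summed to 260.1 to 267.6 CPM with IFN-γ and 186.2 to 202.2 CPM untreated. Of the 10 tested, 6 were called higher with IFN-γ, against 19.6% of all genes tested. Mmp8, the highest of the 13, averaged 88.3 CPM with IFN-γ and 84.6 CPM untreated and was not called. Mpo and Camp were not called either. Of the 13, Ly6g, a defining surface marker, had 3 counts over all 6 libraries and was not tested, and the granule protease gene Elane averaged 0.687 CPM with IFN-γ and 0.420 CPM untreated and was not called. The called genes were S100a8 and S100a9, which averaged 53.5 and 68.5 CPM with IFN-γ, against 33.6 and 42.4 CPM untreated, and Csf3r (30.9 CPM with IFN-γ, 18.8 CPM untreated), Ngp (16.7 CPM with IFN-γ, 9.49 CPM untreated), Ltf and Prtn3. The T cell list summed to 1.095 to 1.386 CPM with IFN-γ and 0.266 to 0.415 CPM untreated, with Lck called higher and Cd3e at 0 counts in all 6 libraries. The dendritic cell list summed to 5.37 to 5.96 CPM with IFN-γ and 1.72 to 2.16 CPM untreated. Of its 5 genes, all tested, Xcr1 (3.02 CPM with IFN-γ, 0.587 CPM untreated) and Clec9a were called higher. Flt3, Zbtb46 and Siglech were not called. Gata2 of the mast cell list was also called higher (3.78 CPM with IFN-γ, 1.92 CPM untreated), with Fcer1a at 0 counts. In the B cell list only 1 gene passed the count filter, and it was not called. No gene of the NK, erythroid and stromal lists passed the filter, so none could be called. The part of these cells, like that of the lists above, was not tested. In bulk RNA, a change in the number of cells of a type and a change in RNA per cell cannot be told apart. Untreated replicate 2 stood apart from the other untreated libraries by exon length, with a slope of -0.139 log2 units per doubling of length, where the other 5 libraries lay between -0.0366 and 0.1, each against the others of its group.

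IFN-γ raised 3 of the 7 oxidase genes, Cybb, Ncf1 and Cybc1, and none was called lower. Over all genes tested, 19.6% were called higher and 16.8% lower in edgeR's quasi-likelihood test, or 36.4% in either direction, at a Benjamini-Hochberg threshold of 0.05. With other scalings of the libraries those totals moved from 2539 higher and 2176 lower to 1803 higher and 4097 lower (upper quartile) or 1666 higher and 4520 lower (total counts alone), as the median of all genes shifted by -0.147 or -0.17 on the log2 scale. For the same 3 genes every IFN-γ library lay above every untreated library, which was so for 25.9% of genes tested, while 50.1% had groups apart in either direction. The median log2 fold change was 0.14 over the 7 genes, and -0.014 over all genes tested. The other 4 genes, Cyba, Ncf4, Rac1 and Rac2, lay within log2 fold changes of 0.030 and 0.14, turned negative with upper quartile scaling or total counts alone, and did not pass the test. That split rested on untreated replicate 2: without it all 7 were called higher, with 24.0% of all genes tested then called higher and 21.1% lower.

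**Figure D2:**
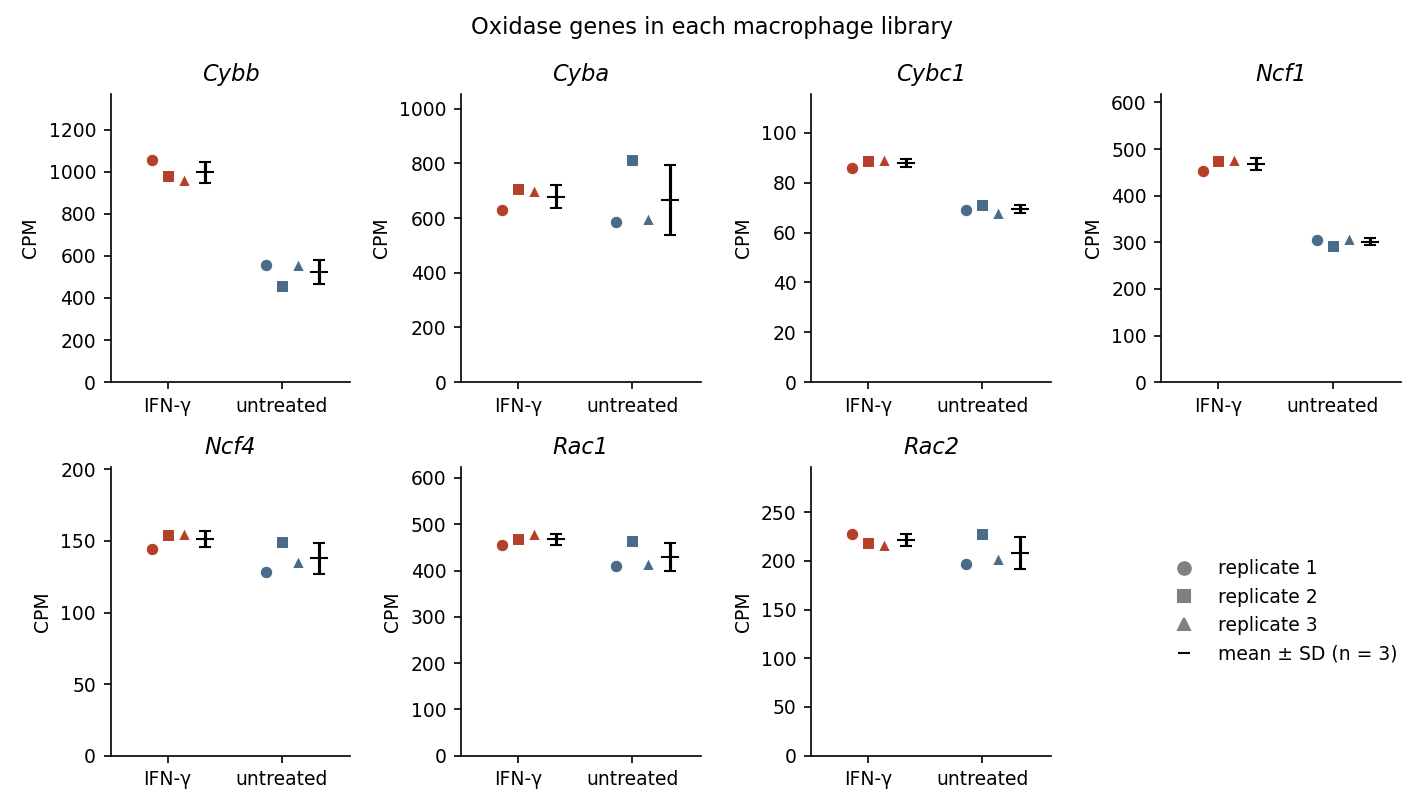
CPM (y axis, from 0) of each oxidase gene in each library, with IFN-γ left of untreated, 1 symbol per replicate, and black bars for the mean ± SD (n = 3 per group). The groups stand apart for Cybb, Ncf1 and Cybc1 and overlap for the other 4 genes, where untreated replicate 2 (square) is the highest untreated library.

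Cybb, the catalytic chain of the membrane heterodimer, had the largest rise of the 7. The tables place it on the minus strand of chromosome X, from 9301493 to 9354005, and its 14 merged exons hold 4802 bases. Its level was 1055, 977.8 and 960.5 CPM in the IFN-γ libraries, against 555.9, 455.2 and 558.0 CPM in the untreated libraries. The lowest treated library was thus well above the highest untreated one, and untreated replicate 2 was the lowest of all. The means were 998 ± 50.2 CPM with IFN-γ and 523 ± 58.7 CPM untreated (SD, n = 3 each). On the log2 scale Cybb changed by 0.93 ± 0.09 (SE), a 1.91-fold rise with a 95% interval from 1.65 to 2.21 and an adjusted p of 0.000105. By log2 fold change it ranked 895 of 12968 genes. The untreated spread was uneven, and without untreated replicate 2 the log2 fold change was 0.84, with an adjusted p of 3.56e-06. With each library's trend on exon length removed it was 0.94.

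Cyba encodes the other chain of the heterodimer and lies on chromosome 8, minus strand, from 123151510 to 123159679, with 6 exons of only 759 bases in all. Of its 50-base stretches in GENCODE M21 transcripts, 2.39% also occur in another gene. It had 631.4, 705.2 and 698.8 CPM with IFN-γ, against 584.9, 812.0 and 597.2 CPM untreated. The groups overlapped, since untreated replicate 2 was the highest of the 6 libraries. Means were 678 ± 40.9 CPM with IFN-γ and 665 ± 128 CPM untreated (SD, n = 3 each). On the log2 scale the difference was 0.030 ± 0.13 (SE), with an adjusted p of 0.884 and a 95% interval on the fold from 0.834 to 1.25. On the log2 scale Cyba had the widest interval of the 7, from -0.26 to 0.32, and it had a coefficient of variation of 19.2% among untreated libraries, against 6.03% among treated ones. Without untreated replicate 2 the log2 fold change was 0.20 (adjusted p = 0.0234).

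The ratio of Cybb to Cyba, taken on TPM, which divides counts by exon length, was 0.264, 0.219 and 0.217 with IFN-γ, against 0.1502, 0.0886 and 0.148 untreated. All 3 treated libraries lay above all 3 untreated ones. The difference was 0.89 on the log2 scale, with an exact two-sided permutation p of 0.1, the smallest that 3 libraries against 3 can give. With the length trend removed from each library, an alternative added after seeing the data, the difference was 0.85 and the groups again stood apart.

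Cybc1, whose product keeps gp91phox stable in mice, rose by a smaller amount. It lies on chromosome 11, minus strand, from 121113414 to 121120135, with 8 exons of 2591 bases. Its level was 85.98, 88.63 and 89.07 CPM with IFN-γ, against 69.23, 71.22 and 67.78 CPM untreated. The replicates were tight, and the groups did not overlap. The mean was 87.9 ± 1.67 CPM with IFN-γ and 69.4 ± 1.73 CPM untreated (SD, n = 3 each), a log2 fold change of 0.34 ± 0.05 (SE) and a 1.27-fold rise (adjusted p = 0.00127). The value was 0.17 with total counts alone (adjusted p = 0.0247) and 0.19 with upper quartile scaling (adjusted p = 0.0204). Relative to the shift of all genes it was 0.34 under either. Scaling moves all genes by nearly the same amount, so that value is no separate check. Exons of Hexdc on the opposite strand overlap 72 bases of it, and Hexdc averaged 127.0 counts against 2459 for Cybc1. The sources used here do not state whether counting used strand.

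Ncf1, the cytosolic organiser that bridges the membrane chains and the other cytosolic parts, had the second largest rise. It lies on chromosome 5, minus strand, from 134248907 to 134258479, with 12 exons of 2969 bases. The IFN-γ libraries had 453.5, 475.3 and 476.3 CPM, against 304.3, 292.8 and 306.4 CPM in the untreated libraries. The gap between the groups was many times the spread within either. Means were 468 ± 12.9 CPM with IFN-γ and 301 ± 7.32 CPM untreated (SD, n = 3 each), a log2 fold change of 0.64 ± 0.05 (SE), or 1.56-fold with a 95% interval from 1.43 to 1.70, and an adjusted p of 4.68e-05. Its rank by log2 fold change was 1339. An opposite-strand entry, LOC115490142, overlaps 220 bases of its exons and averaged 24.5 counts, against 12040 for Ncf1.

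Ncf4, whose PX domain binds the phagosomal lipid phosphatidylinositol 3-phosphate, did not pass the test. It lies on the plus strand of chromosome 15, from 78128364 to 78146782, and its 13 exons total 1709 bases. It had 144.7, 154.3 and 155.1 CPM with IFN-γ, against 128.6, 149.3 and 135.4 CPM untreated. The groups overlapped at 1 point, where untreated replicate 2 exceeded IFN-γ replicate 1. The log2 fold change was 0.14 ± 0.07 (SE), with an adjusted p of 0.168 and a 95% interval on the fold from 0.984 to 1.23. It was called higher without untreated replicate 2 (0.20, adjusted p = 0.0125) and with the length trend removed (0.18, adjusted p = 0.00348).

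Rac1 and Rac2 encode the small GTPases that switch the assembled oxidase on; Rac2 is restricted to blood cells, while Rac1 is made in most tissues. Rac1 lies on chromosome 5, minus strand, from 143491236 to 143513786, with 7 exons of 2364 bases, and Rac2 on chromosome 15, minus strand, from 78443369 to 78456983, with 7 exons of 3036 bases. No 50-base stretch of the Rac1 transcripts in GENCODE M21 occurs in another gene, and 0.484% of those of Rac2 do, none of them in Rac1. Rac1 had 456.0, 468.2 and 479.8 CPM with IFN-γ, against 409.7, 463.1 and 413.9 CPM untreated. Only untreated replicate 2 reached the range of the treated libraries. The log2 fold change was 0.13 ± 0.07 (SE), with an adjusted p of 0.182 and a 95% interval on the fold from 0.981 to 1.21. Rac2 had 228.0, 218.5 and 216.8 CPM with IFN-γ, against 196.3, 227.2 and 202.1 CPM untreated. Here too untreated replicate 2 lay inside the treated range. The log2 fold change of Rac2 was 0.084 ± 0.07 (SE), with an adjusted p of 0.382 and a 95% interval on the fold from 0.951 to 1.18. Without untreated replicate 2 both were called higher, Rac1 at 0.18 (adjusted p = 0.0101) and Rac2 at 0.15 (adjusted p = 0.0259), and Rac1 was also called with the length trend removed (0.16, adjusted p = 0.0113).

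The balance between the Rac genes did not shift detectably. Rac2 made up 28.02%, 26.65% and 26.03% of the summed TPM of Rac1 and Rac2 with IFN-γ, against 27.17%, 27.64% and 27.55% untreated. The treated range enclosed the untreated one. The difference was -0.553 percentage points (exact two-sided permutation p = 0.4, where 3 against 3 cannot go below 0.1).

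**Figure D3:**
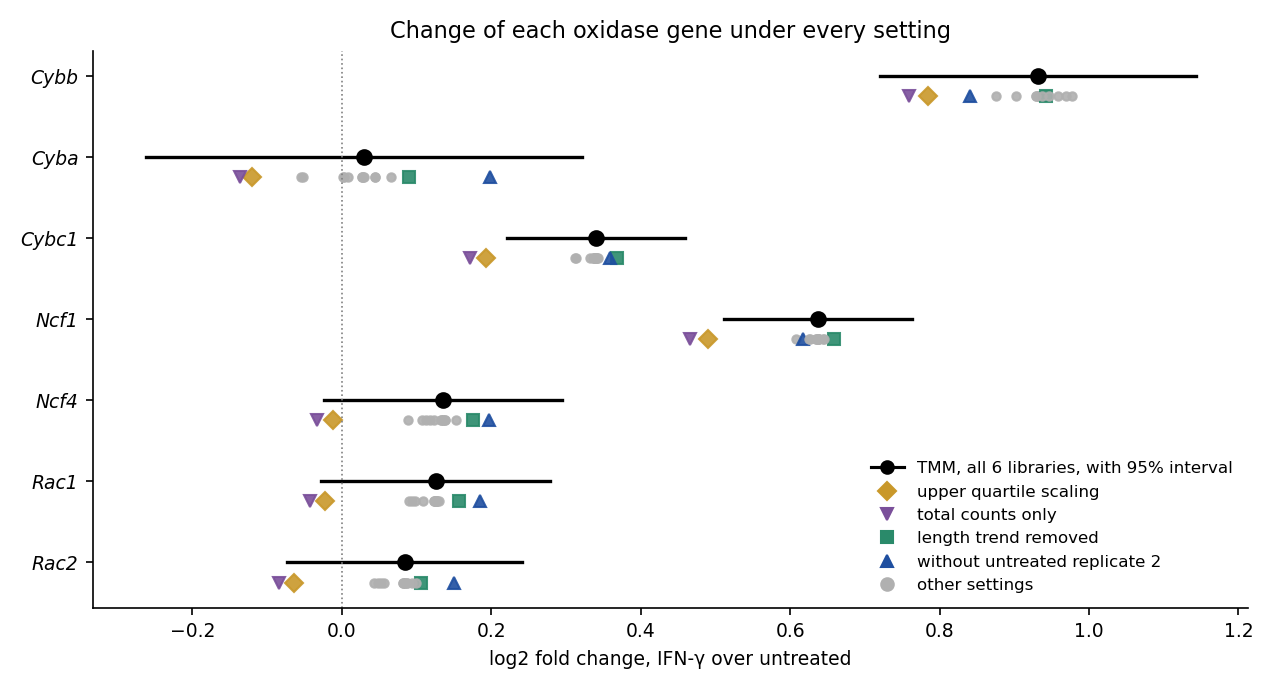
Log2 fold change of IFN-γ over untreated (x axis) for each oxidase gene: black points and lines for TMM scaling with all 6 libraries and its 95% interval, symbols just under them for the other settings. Cybb, Ncf1 and Cybc1 stay above 0 under each setting shown, while the other 4 genes fall below 0 with upper quartile scaling or total counts and rise most without untreated replicate 2.

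Compared per length in TPM, the 7 genes differed widely in level. Cyba was by far the highest, at 1788 ± 51.3 TPM with IFN-γ and 1890 ± 211 TPM untreated (SD, n = 3 each), and ranked 79 and 72 among the 36706 listed genes. With IFN-γ, Cybb at 417 ± 35.7 TPM, Rac1 at 396 ± 5.46 TPM and Ncf1 at 316 ± 2.27 TPM came next, then Ncf4 at 177 ± 0.903 TPM, Rac2 at 146 ± 9.11 TPM and Cybc1 at 67.9 ± 1.03 TPM. In untreated cells the order was Rac1 at 394 ± 4.24 TPM, Cybb at 239 ± 43.0 TPM, Ncf1 at 221 ± 21.4 TPM, Ncf4 at 175 ± 5.07 TPM, Rac2 at 149 ± 2.57 TPM and Cybc1 at 58.3 ± 3.08 TPM. Cybb thus stood above Rac1 on average with IFN-γ and below it untreated. Among neighbours in the order, the treated libraries of Cybb and Rac1 overlapped, as did the untreated libraries of Cybb and Ncf1, and no other pair of neighbours did. By mean TPM, Cybb ranked 378 of all listed genes with IFN-γ and 606 untreated.

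**Figure D4:**
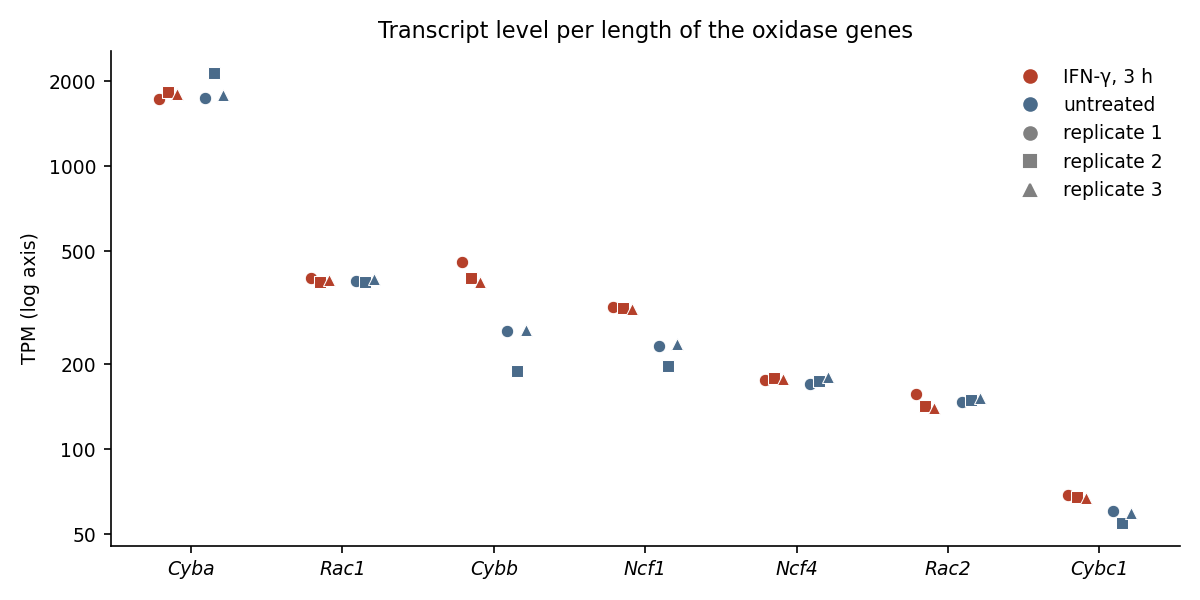
TPM of each oxidase gene (y axis, log scale) in each library, with IFN-γ left of untreated and 1 symbol per replicate, genes ordered by their untreated mean. Cyba lies between 1732 and 2132 TPM in the 6 libraries and Cybc1 between 54.77 and 69.11 TPM.

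For each oxidase gene, the genes with the most similar profile were sought by the root mean square distance of log2 CPM over the 6 libraries, each gene centred on its own mean. Since the libraries form 2 groups, likeness here rests largely on the treatment difference and on untreated replicate 2. Closest to Cybb were Srgap2, Gfpt1 and Daam2, at distances of 0.0268, 0.0277 and 0.0278. Their log2 fold changes were 0.94, 0.96 and 0.99. Closest to Ncf1 were Gatm, Snap23 and Mcur1, at 0.0126, 0.0162 and 0.0174. Closest to Cybc1 were Ppp2r5a, Ptcd2 and Cd72, at 0.0186, 0.0188 and 0.0200. The profile of Cyba, highest in untreated replicate 2 and lowest in untreated replicates 1 and 3, was closest to those of Atp5o, Myl6 and Rps20. Their distances were 0.0133, 0.0169 and 0.0169. Near Ncf4 were Psmd14 (0.0154) and Rnaseh1, Rac1 was nearest to Fzr1 (0.0147), Sec13 and Vamp3, and Rac2 to Glmp (0.0145), Elavl1 and Rrp1, none of which was called.

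Around the oxidase, 119 genes in 9 lists were examined, of which 108 were tested, 38 were called higher and 14 lower, with a median log2 fold change of 0.087. In the list of triggering receptors, which also holds the inhibitory receptor gene Fcgr2b, 8 of 11 were called higher. Of the transcription factors 8 of 13 were called higher. Over all genes tested the share was 19.6%. Of the genes that supply NADPH and haem or remove the oxidants, 24 of 36 (66.7%) were not called, close to the 63.6% of all genes tested. The number called lower in all depended on scaling and on single libraries, at 28 with upper quartile scaling, 37 with total counts alone, 22 without untreated replicate 2 and 9 without IFN-γ replicate 3. Over all genes tested, 31.6%, 34.9%, 21.1% and 11.4% were lower under those settings, against 16.8% with TMM and all 6 libraries.

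Of 9 other genes of the NOX family, 2 were tested, and both are given whatever their result. Nox1, a catalytic subunit best known from colon, had 26, 15 and 21 counts with IFN-γ, against 12, 7 and 7 untreated, and was called higher at 1.22 ± 0.34 (SE, adjusted p = 0.0221). It lost that call without untreated replicate 3 (adjusted p = 0.0885) and without IFN-γ replicate 1 (0.0867) or 3 (0.0682). Noxo1, a homologue of p47phox, was at -0.24 ± 0.22 and not called. No count of Nox4, Duox2 or Noxa1 was listed in any of the 6 libraries, where 3 counts are the limit that 0 allows.

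Of the 11 genes in the list of triggering receptors, 8 were higher and 1 lower, with a median log2 fold change of 0.99. That list also holds Fcgr2b, whose product is an inhibitory receptor and which is among the 8. The IgG receptor gene Fcgr4 averaged 254 ± 11.3 CPM with IFN-γ and 50.7 ± 6.38 CPM untreated, and rose by 2.33 ± 0.09 (SE). The formyl peptide receptor gene Fpr2 rose by 1.86 ± 0.12 and the inhibitory IgG receptor gene Fcgr2b by 1.49 ± 0.06. The gene called lower was C5ar1, the receptor of complement C5a, at -0.27, which was not called without untreated replicate 3 (adjusted p = 0.0604) or IFN-γ replicate 2 (0.122) or 3 (0.109).

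Of 25 kinase and lipid-signalling genes that bear on assembly, 10 were higher and 2 lower, with a median of 0.17. Over all genes tested, 19.6% were higher and 16.8% lower. Pla2g4a, the cytosolic phospholipase A2 that releases arachidonic acid, averaged 122.6 ± 5.09 CPM with IFN-γ and 46.7 ± 4.05 CPM untreated, and rose by 1.39 ± 0.08 (SE). The Src-family kinase gene Lyn rose by 0.99 ± 0.05. Prkcd, a protein kinase C gene whose product can phosphorylate p47phox, rose by 0.37. The genes called lower were Mapk14, the p38α kinase gene, at -0.59, and Pik3cg, a phosphoinositide 3-kinase gene, at -0.58. The number lower was 5 with upper quartile scaling, 6 with total counts alone and 4 without untreated replicate 2.

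Of 14 Rac regulators, 3 were higher and 2 lower, near the shares over all genes tested (19.6% and 16.8%), with a median of 0.11. Arhgap25, a GTPase-activating protein gene that acts on Rac, had a log2 fold change of -0.89 ± 0.06 (SE), at 41.6 ± 1.63 CPM with IFN-γ and 76.9 ± 2.42 CPM untreated. Abr, which encodes another such protein, rose by 0.83 ± 0.11, and the exchange factor gene Vav2 was lower at -0.55 ± 0.10. The related exchange factor gene Vav1 rose by 0.39. The number higher was 5 with the length trend removed and 2 to 4 when single libraries were left out.

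Of 7 ion channel, exchanger and transporter genes of charge and pH, 3 were higher, against 19.6% of all genes tested. None of the 7 was lower, against 16.8% of all genes tested. The number higher was 1 with total counts alone or without IFN-γ replicate 1 or 2, and 2 were lower under each of 4 settings: upper quartile scaling, total counts alone, the length trend removed, and without untreated replicate 2. Clcn7, a lysosomal chloride-proton exchanger gene, rose by 1.03 ± 0.08 (SE), to 280 ± 17.8 CPM with IFN-γ, against 137 ± 12.9 CPM untreated. The proton channel gene Hvcn1, which carries the charge that balances electron flow, was at 25.8 CPM with IFN-γ and 29.5 CPM untreated, a log2 fold change of -0.19 that did not pass the test (adjusted p = 0.0547). Also called higher, the potassium channel gene Kcna3 had only 49, 46 and 36 counts with IFN-γ, against 21, 4 and 26 untreated. It was not called with total counts alone (adjusted p = 0.0533) or without IFN-γ replicate 1 (0.118), 2 (0.106) or 3 (0.0680).

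Of 19 genes that dispose of superoxide and peroxide, 3 were higher and 3 lower, near the shares over all genes tested (19.6% and 16.8%). Their median was -0.048. Sod2, the mitochondrial superoxide dismutase gene, averaged 434.5 ± 20.7 CPM with IFN-γ and 145 ± 5.95 CPM untreated, a rise of 1.58 ± 0.06 (SE). The peroxiredoxin gene Prdx5 rose by 0.80 ± 0.12 and the glutaredoxin gene Glrx by 0.39 ± 0.06. Lower were Srxn1 (-0.36), Gsr (-0.31) and Txnrd2 (-0.32), which encode sulfiredoxin, glutathione reductase and a thioredoxin reductase; Txnrd2 lost its call without IFN-γ replicate 1 (adjusted p = 0.0991) or 3 (0.129). With upper quartile scaling 5 were lower, and 9 with total counts alone; 6 were higher without untreated replicate 2, and 5 with the length trend removed or with the replicate block.

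Of 9 genes of NADPH supply, 1 was higher and 2 were lower, against 19.6% and 16.8% of all genes tested. The number lower was 4 with upper quartile scaling (31.6% of all genes tested) and 6 with total counts alone (34.9%). The cytosolic isocitrate dehydrogenase gene Idh1 was at 97.6 ± 4.64 CPM with IFN-γ and 176 ± 2.63 CPM untreated, a log2 fold change of -0.85 ± 0.06 (SE). Nadk, the NAD kinase gene, rose by 0.44 ± 0.06. H6pd, a pentose phosphate enzyme gene of the endoplasmic reticulum, was at -0.24 ± 0.07 and lost its call without any of 4 single libraries, with adjusted p from 0.0833 to 0.114. G6pdx, the entry enzyme of the cytosolic pentose phosphate pathway, was at 194 CPM with IFN-γ and 180 CPM untreated and was not called.

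Among 8 genes of haem synthesis, which makes the cofactor of gp91phox, 1 was higher and 2 were lower. Over all genes tested, 19.6% were higher and 16.8% lower. With total counts alone none of the 8 was higher and 6 were lower, against 12.8% and 34.9% of all genes. With upper quartile scaling 4 were lower, against 31.6% of all genes. Alas1, the rate-limiting enzyme gene, was at 0.23 ± 0.05 (SE) and lost its call with upper quartile scaling (0.079, adjusted p = 0.244) and total counts (0.057, adjusted p = 0.379). Alad, the gene of the next enzyme, was at -0.44 ± 0.11 and was not called without IFN-γ replicate 1 or 3 (adjusted p = 0.0563 and 0.0560).

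Of 13 tested transcription factor genes with a role at oxidase genes, known in part from human cells, 8 were higher and 2 lower, with a median of 0.68. Irf1 averaged 941 ± 14.2 CPM with IFN-γ and 33.1 ± 0.605 CPM untreated, a log2 fold change of 4.83 ± 0.06 (SE). Irf8, the gene of a related myeloid factor, rose by 2.03 ± 0.05. Spi1, which encodes the myeloid factor PU.1, rose by 0.46, while the myeloid factor gene Cebpa had a log2 fold change of -1.01. The count of 8 higher was the same under each of the 16 alternatives run, while the number lower reached 4 with upper quartile scaling or total counts alone and 3 without untreated replicate 2 or IFN-γ replicate 2.

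**Figure D5:**
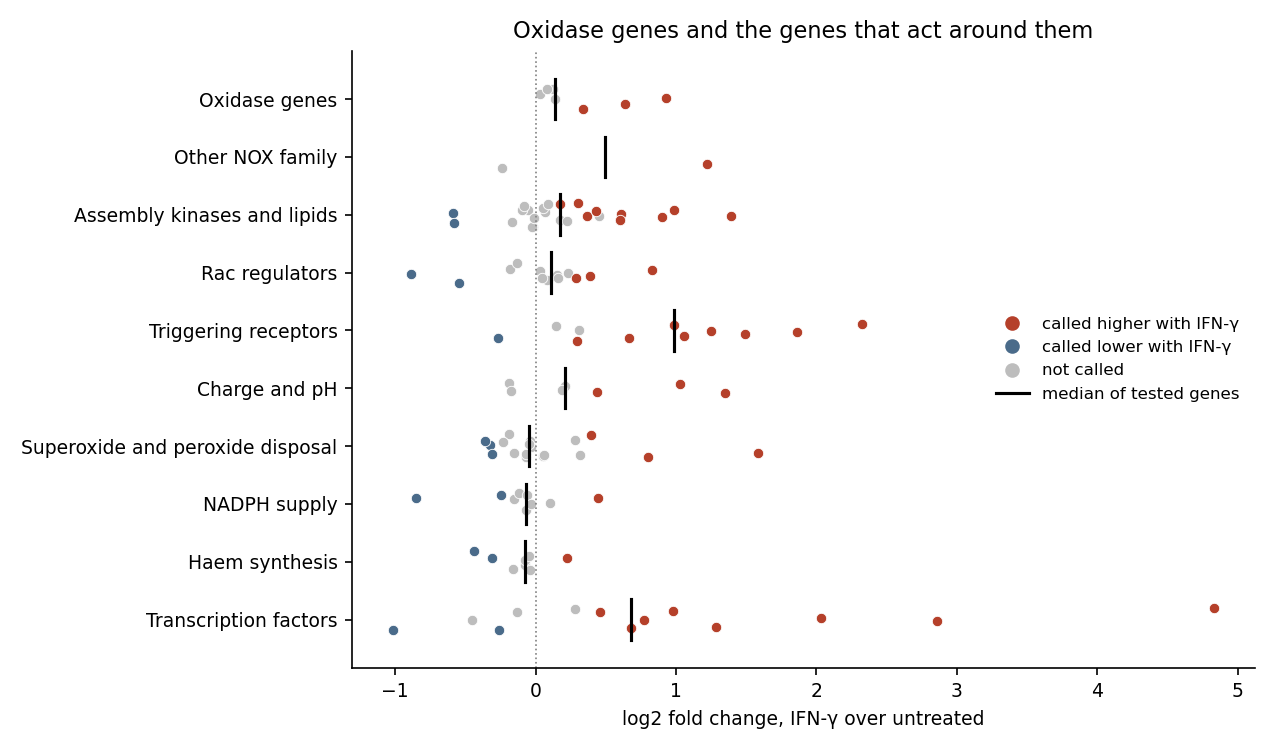
Log2 fold change of IFN-γ over untreated (x axis) for each tested gene of the oxidase and of the 9 lists around it, coloured by call, with a black line at each list's median. The medians of triggering receptors and transcription factors lie at 0.99 and 0.68, and those of disposal, NADPH supply and haem synthesis at -0.048, -0.068 and -0.074.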

How the data were processed

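RNA was sequenced in 6 libraries of mouse bone marrow-derived macrophages, prepared, per the labels, with the stranded mRNA kit of KAPA. HISAT2 and build mm10 are named in the submitters' processing notes; how reads were counted, including strand and multiple mapping, is not given in the sources used here. Per the file headers, the authors deposited a count, TPM, FPKM and exon coordinates per gene. The deposited counts are whole numbers, not normalized, and were tested; the deposited TPM was used only to compare levels between genes; FPKM was not used. Start and end equalled those in RefSeq's GRCm38.p6 for 601 (1.7%) of 35272 shared symbols, so gene coordinates are those of the tables, whose build is not named, while promoter windows carry GRCm38.p6.

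Groups came from the titles. Counts were analysed with edgeR 4.0.16 in R 4.3.3: filterByExpr (minimum count 10, minimum total 15), TMM scaling, then glmQLFit with a two-sided glmQLFTest, p-values adjusted by Benjamini-Hochberg across 12968 genes, called under 0.05. SEs came from the log2 fold change over the root of F. The procedure was tested on simulated data. The alternatives tried were scaling by RLE, by upper quartile or by total counts, leaving genes unfiltered, keeping genes at 5 CPM in 3 libraries, a robust fit, limma-voom (limma 3.58.1), DESeq2 1.42.0, the replicate number as a block, subtraction of a lowess trend (span 0.5) on exon length per library, and leaving out each library. No replicate pair agreed within sampling noise: chi-square over its degrees of freedom lay between 2.05 and 81.12. Among untreated libraries it was 81.12 for replicates 1 and 2, 52.72 for 1 and 3, and 27.5 for 2 and 3. By this measure untreated replicate 1, not 2, lay furthest from the others. Permutations used scipy 1.17.1.

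The 7 genes, the lists, the motifs and the alternatives were chosen with earlier results of these data known. From each list up to 3 called genes with the largest changes and a mean of at least 1 CPM were named, and 3 nearest profiles per oxidase gene; some genes that this names are not reported here. Nox1, Noxo1, Nox4, Duox2, Noxa1, C5ar1, Prkcd, Mapk14, Pik3cg, Vav1, Hvcn1, Kcna3, Srxn1, Gsr, Txnrd2, G6pdx, Spi1 and Cebpa were named after their values were seen. Not every subunit of the oxidase is analysed here.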

Additional observations from a re-analysis of the deposited data

How the results depend on the processing

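Cybb, Ncf1 and Cybc1 were called higher under all 16 alternatives, at log2 fold changes from 0.76 to 0.98, from 0.47 to 0.66 and from 0.17 to 0.37. The number of oxidase genes called higher was 5 with the length trend removed (25.8% of all genes) and from 3 to 7 when each library was left out (7 without untreated replicate 2, with 24.0% of all genes), and 3 under the other settings; none was called lower under any. Upper quartile scaling and total counts alone shifted the median of all genes by -0.147 and -0.17. Under them Cyba was at -0.12 and -0.14, Ncf4 at -0.012 and -0.033, Rac1 at -0.022 and -0.043 and Rac2 at -0.064 and -0.084, none of them called. Relative to those shifts the 4 values were from 0.027 to 0.14, which follows from scaling moving all genes nearly alike and is no separate check. Cyba was also at -0.055 without untreated replicate 1 and -0.052 without untreated replicate 3, and ran from -0.055 to 0.20 when each library was left out. The surrounding genes called lower numbered 28 with upper quartile scaling (31.6% of all genes) and 37 with total counts alone (34.9%). They numbered from 9 to 22 when each library was left out. Those called higher stayed between 31 and 48. The cause of these shifts was not tested. A fit with a library left out also has fewer libraries, and the part of that was not tested either.

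Libraries with the same number did not deviate together in every case (correlations of 0.306, 0.144 and -0.0703 for replicates 1, 2 and 3), and IFN-γ replicate 3 correlated best with untreated replicate 2. With the replicate block, 3 oxidase genes were called higher, and 2723 genes in all were higher and 2327 lower, against 2539 and 2176 without it. The difference in the Rac2 share ran from -1.115 to -0.117 percentage points and that in the Cybb to Cyba ratio from 0.64 to 1.02 (log2) when each library was left out. With 3 libraries a group, the 95% intervals of the uncalled genes allow rises of up to 1.25-fold for Cyba, 1.23-fold for Ncf4, 1.21-fold for Rac1 and 1.18-fold for Rac2. They also allow falls, down to 0.834-fold for Cyba, 0.984-fold for Ncf4, 0.981-fold for Rac1 and 0.951-fold for Rac2.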
